A study of Homo sapiens with 6 samples.

Results

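The 10 genes examined here belong to the insulin-like growth factor (IGF) axis and were measured in the side population of IGROV1, an established human ovarian carcinoma cell line. The members were the receptors IGF1R, IGF2R and INSR, the receptor substrates IRS1 and IRS2, and the binding proteins IGFBP2, IGFBP3, IGFBP4, IGFBP5 and IGFBP6. All probe sets that the platform annotation pairs with these symbols were taken, which gave 29 of the 54613 probe sets tested and, with 1 probe set per gene, 10 of 19775 genes. SP cells (side population) are those that keep little Hoechst 33342, a DNA-binding dye that membrane pumps remove, and non-SP cells are those outside that gate. Both groups came from IGROV1 cells grown in RPMI 1640 with fetal bovine serum, and both went through the dye and the sort with no other treatment, giving 3 SP and 3 non-SP samples. The labels call them biological replicates without naming separate cultures, so the p-values cover the spread among these samples only, part of which may be technical. Each sample was hybridised to 1 array, and values are log2 expression per probe set. In sorted cells measured in bulk, a larger share of expressing cells and more RNA per expressing cell cannot be told apart.

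IGF1 and IGF2 signal through IGF1R, a receptor tyrosine kinase closely related to the insulin receptor INSR. Both receptors phosphorylate the adaptors IRS1 and IRS2, which recruit phosphoinositide 3-kinase and so activate AKT, mTORC1 and the inactivation of FOXO factors. IGF2R is the cation-independent mannose 6-phosphate receptor, which carries lysosomal enzymes and removes IGF2 from the cell surface without a kinase of its own. The secreted IGF-binding proteins hold IGFs outside the cell and are cut by dedicated proteases. In ovarian carcinoma, IGF signalling is known for its ties to growth and survival.

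Across the arrays, ASNS, the asparagine synthetase gene that rises when amino acids are short, took a high or a low level. It stood at 12.39, 12.43 and 12.64 in SP replicate 2, SP replicate 3 and non-SP replicate 2, against 9.78, 9.60 and 9.90 in SP replicate 1, non-SP replicate 1 and non-SP replicate 3. These 3 arrays above and 3 arrays below a log2 level of 11 are not groups of the study, and nothing below tests one set against the other. The sets cut across the sort, with 2 SP and 1 non-SP arrays above 11. The ACTB signal at the 3′ end minus that at the 5′ end, a measure of RNA integrity and amplification, also parted them. It was 2.48, 2.46 and 2.55 in the arrays above 11 and 2.08, 2.02 and 2.29 in those below. The same measure for GAPDH overlapped between the sets, at 0.04, 0.17 and 0.36 in the arrays above 11 and 0.14, 0.15 and 0.04 in those below. The part of RNA integrity or amplification in the values that follow was not tested. All 10 epithelial and Müllerian markers (among them PAX8 and EPCAM) lay above the averaged negative controls (3 probe sets) on every array. Of 7 leukocyte markers, CD3E lay below these controls on all 6 arrays and PTPRC on 5, but the other 5 lay above them on every array, with means between 4.18 (LYZ) and 5.35 (CD14). The 7 summed to 29.1 to 30.6 log2 units in SP arrays and 28.7 to 29.6 in non-SP arrays. The 6 endothelial markers summed to 29.4 to 30.0 log2 units in SP arrays and 30.4 to 31.6 in non-SP arrays. Of these, KDR lay under the array's first quartile on all 6 arrays and TIE1, with the largest difference (-0.55), on 5. The 8 fibroblast markers summed to 33.34 to 33.87 log2 units in SP arrays and 33.89 to 34.59 in non-SP arrays. Among them LUM and FAP lay under the first quartile on all 6 arrays. The part of all these markers in the SP differences was not tested.

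None of the 10 genes differed between SP and non-SP cells past an adjusted p of 0.05 in limma's fit over all genes, in which 1 gene (0.00506%), the non-coding LINC00518, passed. The smallest adjusted p among the 10 was 0.766, for IGFBP3, and 0 of the 10 had an unadjusted p under 0.05, a level that 6.78% of all genes reached. The 10 differences (SP minus non-SP, log2) ran between -0.24 and 1.38 with a median of 0.07, and 5 were above 0. Over all genes the median was -0.02, and 8950 of 19775 were above 0. Every 95% interval included 0. The intervals were narrow for IGFBP2 (-0.42 to 0.20) and INSR (-0.41 to 0.35), and wide for IRS1 (-0.54 to 3.31).

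**Figure D1:**
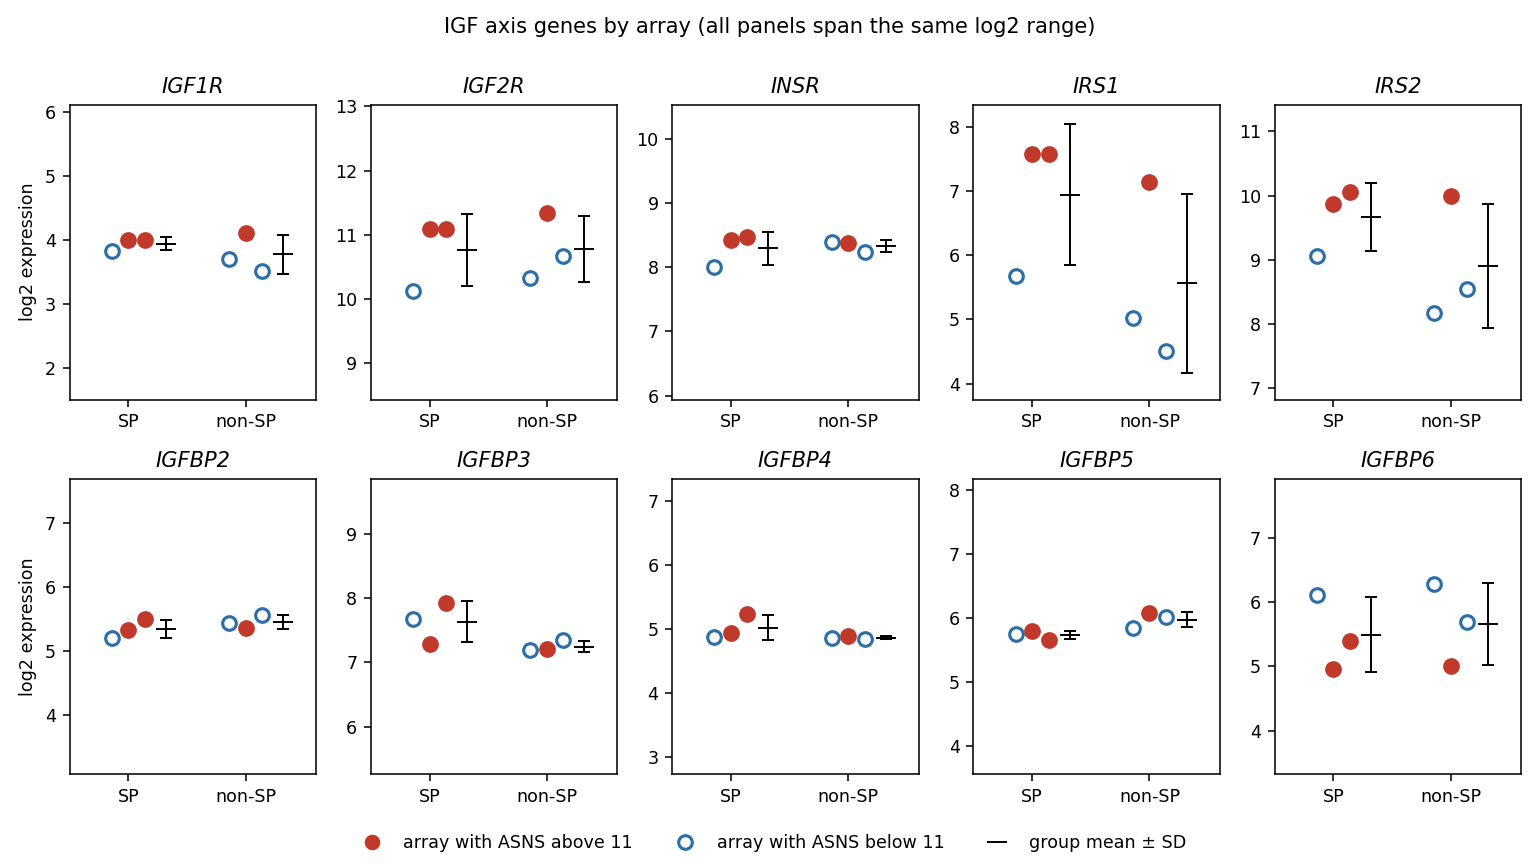
Log2 expression of the 10 genes by array, 1 probe set per gene, with SP arrays left of non-SP arrays and the group mean ± SD beside them. Filled points are arrays with ASNS above 11 and open points those below; IRS1 and IRS2 are high in the filled and low in the open points of both groups.

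Among the receptor substrates, IRS1 spread most over the arrays (SD 1.36 over the 6 arrays). Its level was 5.68, 7.58 and 7.58 in SP replicates 1, 2 and 3, against 5.02, 7.15 and 4.51 in non-SP replicates 1, 2 and 3. SP replicate 1 was low and non-SP replicate 2 high, so that the groups overlapped. The means were 6.95 ± 1.10 in SP cells and 5.56 ± 1.40 in non-SP cells (SD, n = 3 each), a difference of 1.38 (SE 0.80, limma adjusted p = 0.847), or 2.61-fold. Within the arrays with ASNS above 11 SP minus non-SP was 0.43, and within those below 11 it was 0.91. With the array set as a block the difference was 0.67 (SE 0.19, limma adjusted p = 0.312), less than the value without it by over 1.5 times. The array sets were read from ASNS on these same arrays. An SE or p with this block, here and below, may therefore be too small. Leaving out non-SP replicate 2 gave 2.18, leaving out non-SP replicate 3 gave 0.86 and weighting the arrays gave 2.15, so its size depended on single arrays.

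Of the other IRS1 probe sets, 1 ran the same way and 1 did not. Probe set 242979_at had 3.46, 4.85 and 3.71 in SP cells and 2.56, 3.75 and 3.56 in non-SP cells, differing by 0.72 (SE 0.46). It was higher in all arrays above 11 than in all below, but fell under the array's first quartile on 5 of 6 arrays. Probe set 238933_at had 4.99, 4.89 and 4.15 in SP cells and 4.79, 6.14 and 4.76 in non-SP cells, differing by -0.55 (SE 0.43). It overlapped between the array sets and lay above the array's first quartile on every array. With the mean of its 3 probe sets the IRS1 difference was 0.52 (SE 0.46).

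IRS2 had levels of 9.06, 9.86 and 10.06 in SP replicates 1 to 3 and 8.18, 10.00 and 8.55 in non-SP replicates 1 to 3. Here too SP replicate 1 stood below its group and non-SP replicate 2 stood with the high SP arrays. The means were 9.66 ± 0.53 in SP cells and 8.91 ± 0.96 in non-SP cells (SD, n = 3 each), a difference of 0.76 (SE 0.50, limma adjusted p = 0.877). The second IRS2 probe set, 209185_s_at, had 8.40, 9.31 and 9.62 in SP cells and 7.41, 9.18 and 7.76 in non-SP cells, and differed by 0.99 (SE 0.52). Both probe sets put the arrays in 1 pattern. Within the arrays with ASNS above 11 the first probe set differed by -0.04 between SP and non-SP, and within those below by 0.70. With the array set as a block the IRS2 difference was 0.33 (SE 0.21).

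Both substrates thus held separate levels in the 2 array sets, apart from IRS1 probe set 238933_at, which overlapped. For IRS1 the lowest array above 11 (7.15) stood 1.47 above the highest array below 11 (5.68). For IRS2 that gap was 0.80, and ASNS itself had a gap of 2.49. Of the 10 genes, 6 did not overlap between the array sets, against 26.9% of all genes. They were IRS1, IRS2, IGF2R, IGF1R and IGFBP4, higher in the arrays above 11 (13.1% of all genes), and IGFBP6, lower there (13.7% of all genes). Among the 29 probe sets, 13 did not overlap, against 23.0% of all probe sets. Of these 8 were higher in the arrays above 11 and 5 lower, against 10.9% and 12.0% of all probe sets. The share was higher among brighter genes, at 39.4% of those above the median level, where 2 of 4 members (IGF2R and IRS2) did not overlap. The IGFBP4 gap was only 0.01, and that gene overlapped after cyclic loess or median centring. IGF1R counted through 1 dim probe set, 208441_at, with a gap of 0.18. Its other probe sets overlapped between the array sets, and so did the mean of all its probe sets.

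**Figure D2:**
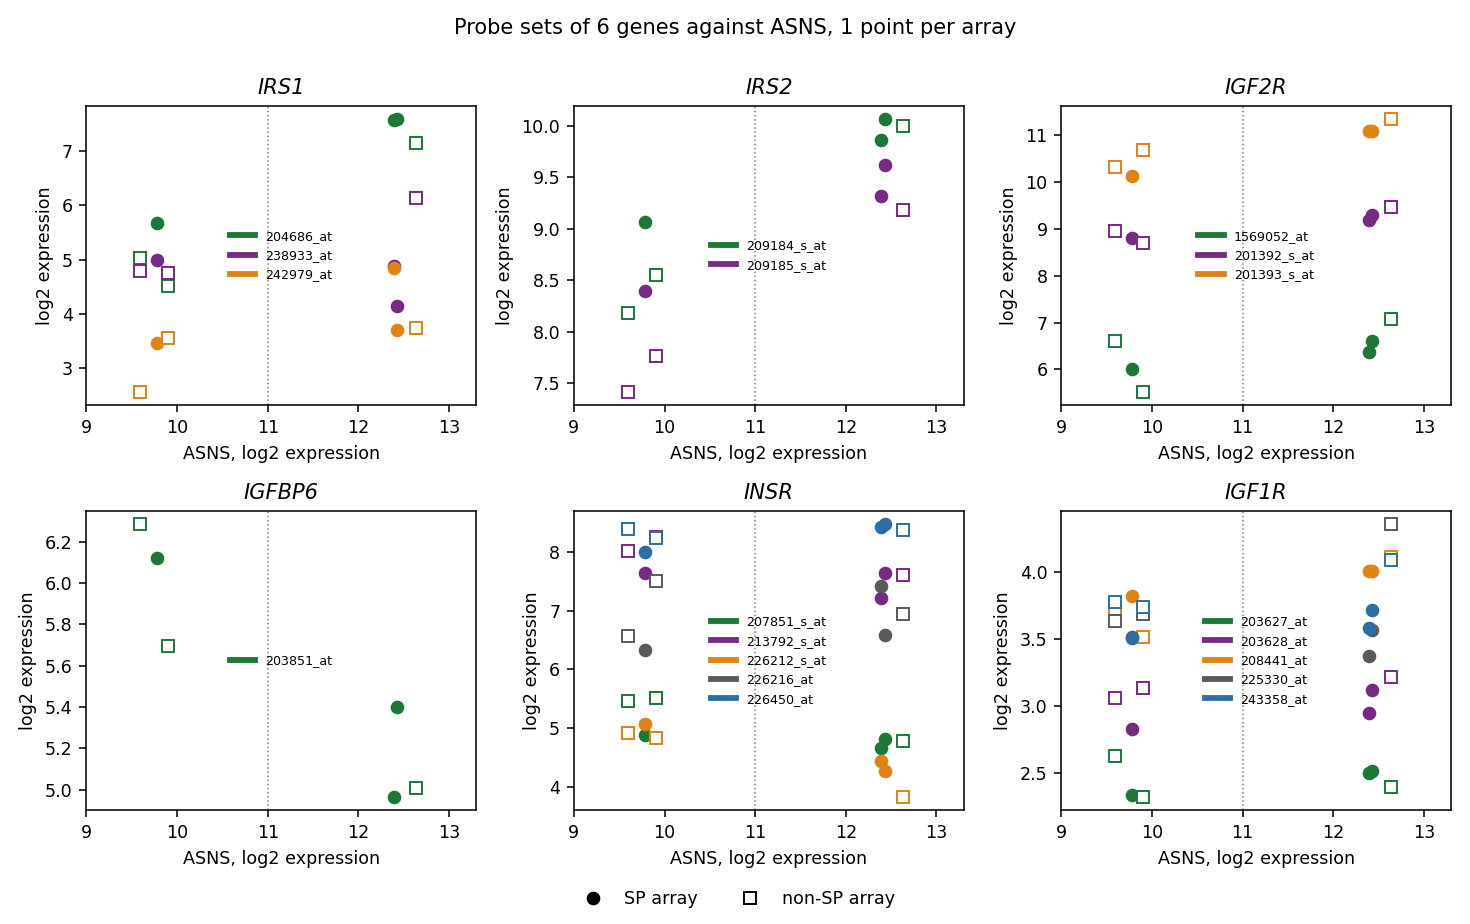
Log2 expression of every probe set of 6 genes against ASNS log2 expression, 1 point per array, filled circles for SP and open squares for non-SP arrays. The dotted line marks 11; IRS2 and 2 of the 3 IGF2R probe sets lie higher right of it, and IGFBP6 lies lower.

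IGF2R, the mannose 6-phosphate receptor, overlapped between SP and non-SP cells and held separate levels in the array sets. Its level was 10.12, 11.09 and 11.09 in SP replicates 1 to 3 and 10.32, 11.34 and 10.67 in non-SP replicates 1 to 3. The means were 10.76 ± 0.56 in SP cells and 10.78 ± 0.52 in non-SP cells (SD, n = 3 each), a difference of -0.01 with a 95% interval of -0.86 to 0.84. SP minus non-SP was -0.25 within the arrays above 11 and -0.37 within those below, and with the array set as a block it was -0.31 (SE 0.14, limma adjusted p = 0.492). The lowest array above 11 stood 0.41 over the highest below it. Probe set 201392_s_at had the same split, with 9.18, 9.30 and 9.47 in the arrays above 11 (SP replicates 2 and 3, non-SP replicate 2). It had 8.79, 8.95 and 8.70 in those below (SP replicate 1, non-SP replicates 1 and 3). Probe set 1569052_at overlapped between the sets, with 6.0, 6.38 and 6.61 in SP cells and 6.61, 7.07 and 5.52 in non-SP cells.

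The start-site windows of these genes, the stretch 250 bases before to 50 bases after the annotated start, are shown for ASNS and for the 6 members that parted the arrays as ASNS did. Sequences are from RefSeq (GRCh38.p14), and all 10 genes matched by symbol, with 12 windows. The letters searched on both strands were TGATGNAA, the CARE site bound by ATF4, CACGTG, the E-box, GTAAACA, a FOXO site, and CAAAACA, the insulin response element. These motifs do not overlap each other in the windows shown, and capitals mark each match. The ASNS window (chr7:97872359-97872658, minus strand) holds the CARE site 68 bases before the start, and a second annotated ASNS window held none of the 4 motifs. The IRS1 window (chr2:226799771-226800070, minus strand) holds 1 E-box, and the IRS2 window (chr13:109786534-109786833, minus strand) 1 insulin response element. The IGF2R window (chr6:159968832-159969131, plus strand) holds 3 E-boxes, and the IGFBP6 window (chr12:53097417-53097716, plus strand) 1 FOXO site. The IGF1R window (chr15:98648289-98648588, plus strand) and the IGFBP4 window (chr17:40443200-40443499, plus strand) hold none of the 4.
ASNS: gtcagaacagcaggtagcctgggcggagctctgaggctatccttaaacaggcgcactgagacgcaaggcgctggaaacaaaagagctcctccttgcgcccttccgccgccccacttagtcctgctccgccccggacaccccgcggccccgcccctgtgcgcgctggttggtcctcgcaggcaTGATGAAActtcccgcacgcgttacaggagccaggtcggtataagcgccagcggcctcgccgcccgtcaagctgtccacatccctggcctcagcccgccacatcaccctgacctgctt
IRS1: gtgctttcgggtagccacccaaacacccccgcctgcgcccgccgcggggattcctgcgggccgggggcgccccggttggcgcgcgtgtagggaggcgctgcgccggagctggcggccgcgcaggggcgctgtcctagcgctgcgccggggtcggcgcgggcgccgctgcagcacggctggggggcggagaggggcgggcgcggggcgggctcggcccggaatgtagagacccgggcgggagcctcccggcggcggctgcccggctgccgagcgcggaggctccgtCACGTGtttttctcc
IRS2: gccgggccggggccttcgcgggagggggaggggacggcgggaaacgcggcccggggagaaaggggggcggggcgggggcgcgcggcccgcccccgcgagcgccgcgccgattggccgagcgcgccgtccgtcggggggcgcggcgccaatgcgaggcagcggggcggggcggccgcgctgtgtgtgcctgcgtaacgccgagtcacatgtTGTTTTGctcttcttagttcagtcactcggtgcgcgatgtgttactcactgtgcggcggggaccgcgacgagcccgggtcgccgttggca
IGF2R: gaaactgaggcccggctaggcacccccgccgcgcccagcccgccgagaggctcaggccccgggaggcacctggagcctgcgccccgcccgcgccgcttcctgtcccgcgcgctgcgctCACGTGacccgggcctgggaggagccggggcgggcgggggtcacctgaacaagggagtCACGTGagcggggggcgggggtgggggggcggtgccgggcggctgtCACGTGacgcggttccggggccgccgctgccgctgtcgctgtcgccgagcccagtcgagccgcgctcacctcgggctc
IGF1R: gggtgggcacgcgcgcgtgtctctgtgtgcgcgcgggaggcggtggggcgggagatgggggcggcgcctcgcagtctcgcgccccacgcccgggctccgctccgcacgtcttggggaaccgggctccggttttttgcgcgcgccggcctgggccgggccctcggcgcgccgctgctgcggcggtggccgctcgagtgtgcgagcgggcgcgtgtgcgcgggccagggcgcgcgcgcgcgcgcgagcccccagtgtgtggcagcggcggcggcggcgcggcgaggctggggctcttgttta
IGFBP4: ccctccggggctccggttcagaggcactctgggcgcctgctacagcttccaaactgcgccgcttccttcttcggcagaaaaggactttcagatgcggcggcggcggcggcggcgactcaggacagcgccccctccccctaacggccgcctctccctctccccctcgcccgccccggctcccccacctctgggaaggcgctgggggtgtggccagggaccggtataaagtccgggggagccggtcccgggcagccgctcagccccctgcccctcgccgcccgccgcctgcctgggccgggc
IGFBP6: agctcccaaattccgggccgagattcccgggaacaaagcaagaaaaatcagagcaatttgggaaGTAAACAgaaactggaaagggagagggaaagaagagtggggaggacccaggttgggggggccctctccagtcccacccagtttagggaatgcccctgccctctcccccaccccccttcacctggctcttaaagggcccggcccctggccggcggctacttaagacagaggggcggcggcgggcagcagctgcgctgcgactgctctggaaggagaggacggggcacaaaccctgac

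Over all 35116 windows of the table, 3.62% held a CARE site, 7.26% an E-box, 3.42% the FOXO site and 4.92% the insulin response element. Windows with 3 or more E-boxes, as in IGF2R, made up 0.094% of the table. None of the 12 windows of the 10 genes held TGATGNAA, which says only that these letters are not in those stretches. A match is a description of the sequence, and binding was not measured.

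IGF1R, the kinase receptor for IGFs, was dim. Its brightest probe set, 208441_at, had 3.82, 4.0 and 4.0 in SP cells and 3.71, 4.10 and 3.51 in non-SP cells. On 3 of 6 arrays it lay under the array's first quartile. These values were near the floor of the measurement, since the mean of the negative controls lay between 2.82 and 2.96. The difference was 0.17 (SE 0.18, limma adjusted p = 0.927), and 0.05 with the array set as a block. Probe sets 225330_at and 243358_at lay lower in all SP arrays than in all non-SP arrays, by 0.40 and 0.27 on average (SE 0.22 and 0.15). Both were dim as well, under the first quartile on 5 of 6 arrays. Over the 29 probe sets 4 had SP and non-SP arrays that did not overlap, against 12.5% of all probe sets, and all 4 were lower in SP, against 6.87% of all probe sets. Probe set 203628_at lay under the first quartile on all 6 arrays, and 203627_at was dimmer than the negative controls on all 6. With the mean of its 5 probe sets the IGF1R difference was -0.14 (SE 0.13), so the sign of this gene depends on the probe set.

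INSR, the insulin receptor, gave different pictures by probe set. The brightest, 226450_at, had 8.0, 8.43 and 8.47 in SP cells and 8.39, 8.38 and 8.23 in non-SP cells, differing by -0.03 (SE 0.16), and by -0.12 (SE 0.13) with the array set as a block. Probe set 213792_s_at had 7.64, 7.22 and 7.63 in SP cells and 8.02, 7.61 and 8.25 in non-SP cells. Its difference was -0.46 (SE 0.21), and SP replicates 1 and 3 lay just above non-SP replicate 2. Probe set 207851_s_at had 4.88, 4.67 and 4.82 in SP cells and 5.46, 4.78 and 5.52 in non-SP cells, differing by -0.47 (SE 0.22). The adjusted p over all probe sets was 0.717 and 0.726 for them, and 0 of the 29 passed, against 0.00183% of all probe sets. Both were lower in all arrays above 11 than in all arrays below it, for 213792_s_at by 0.01, as was 226212_s_at. The direction was opposite to that of IRS1 and IRS2. Probe set 226216_at overlapped in both comparisons, with 6.33, 7.41 and 6.58 in SP cells and 6.56, 6.95 and 7.50 in non-SP cells.

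**Figure D3:**
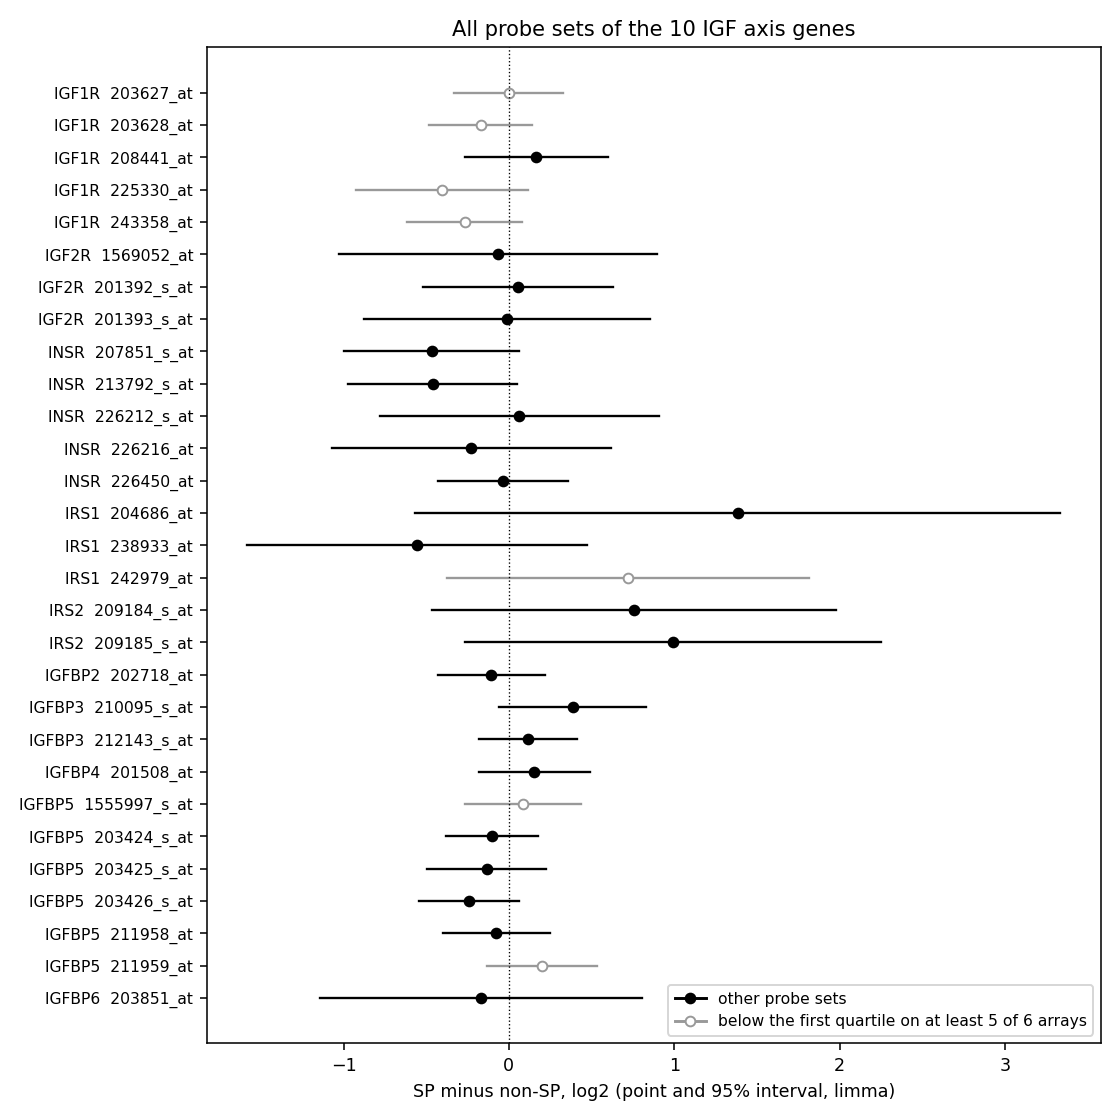
Difference between SP and non-SP cells (log2, point) with its 95% interval from limma for each of the 29 probe sets. Grey open points lie under the array's first quartile on at least 5 of 6 arrays; all intervals cross 0, and those of IRS1 and IRS2 are among the widest.

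Among the binding proteins, IGFBP3, the main IGF carrier of serum, had the smallest p of the 10 genes. Its level was 7.67, 7.29 and 7.93 in SP replicates 1 to 3 and 7.19, 7.21 and 7.34 in non-SP replicates 1 to 3. SP replicates 1 and 3 stood above all non-SP arrays, and SP replicate 2 lay below non-SP replicate 3. The means were 7.63 ± 0.32 in SP cells and 7.25 ± 0.08 in non-SP cells (SD, n = 3 each). The difference was 0.39 (SE 0.18, limma adjusted p = 0.766), or 1.31-fold, with a 95% interval of -0.05 to 0.82 on the log2 scale. It was 0.40 within the arrays above 11 and 0.41 within those below, and the array sets overlapped. The dimmer probe set 212143_s_at had 5.78, 5.84 and 5.86 in SP cells and 5.63, 5.64 and 5.85 in non-SP cells, differing by 0.12 (SE 0.12).

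IGFBP5, which binds IGFs and extracellular matrix, was the 1 member whose SP and non-SP arrays did not overlap, against 11.9% of all genes; it was lower in SP, as were 7.1%. Its level was 5.74, 5.79 and 5.66 in SP cells and 5.84, 6.07 and 6.01 in non-SP cells. The difference was -0.24 (SE 0.12, limma adjusted p = 0.79), with -0.35 within the arrays above 11 and -0.18 within those below. After median centring of the arrays, or cyclic loess, the IGFBP5 groups overlapped; after loess the 1 member without overlap was IGFBP4, higher in SP. Leaving out 1 sample turned the count of 1 into 4 (SP replicate 1), 5 (non-SP replicate 2) or 2 (SP replicate 2, SP replicate 3 and non-SP replicate 3, each in turn). Dropping a sample can only keep or raise such a count, whatever the genes. The share of all genes without overlap was not counted in these settings. Of its other 5 probe sets, 203424_s_at, 203425_s_at and 211958_at differed by -0.10, -0.13 and -0.08, and 211959_at and 1555997_s_at by 0.20 and 0.09. The last of these was dimmer than the negative controls on all 6 arrays and 211959_at on 5. With the mean of all 6 probe sets the IGFBP5 difference was -0.04 (SE 0.09).

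IGFBP6, a binding protein that prefers IGF2, held separate levels in the array sets and overlapped between SP and non-SP cells. It had 6.12, 4.97 and 5.40 in SP replicates 1 to 3 and 6.28, 5.01 and 5.70 in non-SP replicates 1 to 3. The arrays above 11 were the 3 lowest in level, with a gap of 0.30 to the next array. The difference between SP and non-SP cells was -0.17 with a 95% interval of -1.13 to 0.79, and with the array set as a block it was 0.15 (SE 0.21).

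IGFBP2, which is often raised in ovarian carcinoma, had 5.21, 5.34 and 5.50 in SP cells and 5.44, 5.36 and 5.57 in non-SP cells, differing by -0.11 (SE 0.13). IGFBP4, the substrate of the protease PAPPA, had 4.87, 4.94 and 5.24 in SP cells and 4.87, 4.89 and 4.84 in non-SP cells, differing by 0.15 (SE 0.13). SP replicate 3 alone stood apart in IGFBP4, and without it the difference was 0.04. Both genes overlapped between SP and non-SP cells.

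Genes most like a member over the 6 arrays were taken by Pearson's r among 1179 genes above the median level with an SD of at least 0.5, for the 3 members with such an SD. For IRS1 these were ECI1, a mitochondrial enzyme of fatty acid oxidation (r = 0.998), and ANKRD1, a known target of YAP (r = 0.997). For IRS2 they were ZBED2, a zinc finger factor (r = 0.997), and PDE4D, a cyclic AMP phosphodiesterase (r = 0.995). For IGFBP6 they were PLLP, a membrane protein of myelin and epithelia (r = 0.979), and the mucin MUC1 (r = 0.978). These values rest on 6 points that fall into the 2 array sets, and a gene that shares this split has a high r.

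The other genes of the axis were described by lists, with 0 of 86 genes past the adjusted threshold in limma's fit and 8 (9.3%) at an unadjusted p under 0.05, against 6.78% of all genes. Of the 86 differences 46 were above 0 (median 0.02), against 8950 of all 19775 genes (median -0.02). Within each list, genes were named by smallest unadjusted p, which favours groups that do not overlap. Ligands, further receptors, substrates and binding proteins (13 measured; IGF2 was not analysed here) had a median difference of -0.07, with 6 above 0. SHC1, an adaptor that links the receptors to the RAS pathway, had 9.84, 9.90 and 10.06 in SP cells and 10.19, 10.22 and 10.68 in non-SP cells. Its difference was -0.43 (SE 0.17, limma adjusted p = 0.714), with groups that did not overlap. SHC1 was the 1 gene of the 13 without overlap, against 11.9% of all genes. INSRR, the insulin receptor-related receptor, differed by 0.29 (SE 0.20), the cation-dependent mannose 6-phosphate receptor M6PR by 0.23 (SE 0.20) and INS by -0.20 (SE 0.16).

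Genes that cut binding proteins or block the cutting (12 measured) had a median of 0.10, with 10 above 0. ADAMTS1, a secreted metalloprotease, had 7.50, 8.09 and 7.73 in SP cells and 6.31, 7.47 and 7.22 in non-SP cells, differing by 0.77 (SE 0.32, limma adjusted p = 0.733). HTRA1, a secreted serine protease that cuts binding proteins, had 7.13, 7.31 and 7.09 in SP cells and 7.08, 6.52 and 5.90 in non-SP cells, differing by 0.68 (SE 0.29, limma adjusted p = 0.733). All SP values of both lay above all non-SP values, for HTRA1 by a margin near 0 (7.09 against 7.08). They were the 2 of 12 genes without overlap, against 11.9% of all genes. MMP7 differed by 0.42 (SE 0.25) and STC1, an inhibitor of PAPPA, by 0.32 (SE 0.19).

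Genes of PI3K, AKT and mTOR signalling (17 measured) had a median of 0.16, with 11 above 0. PIK3R3, a regulatory subunit of PI3K, had 7.22, 6.31 and 6.30 in SP cells and 5.94, 5.15 and 6.04 in non-SP cells. The groups did not overlap, with a difference of 0.90 (SE 0.34, limma adjusted p = 0.693), 1.15 within the arrays above 11 and 1.23 within those below. RICTOR, the defining subunit of mTORC2, differed by 0.33 (SE 0.12, limma adjusted p = 0.673), with groups that did not overlap. PIK3R3 and RICTOR were the 2 of 17 genes without overlap, against 11.9% of all genes. PIK3R1 differed by 0.41 (SE 0.20) and PIK3CD by 0.31 (SE 0.19).

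Inhibitors and adaptors of the receptors (17 measured) had a median of 0.10, with 10 above 0. PHLPP2, a phosphatase of AKT, had 7.15, 7.48 and 7.72 in SP cells and 6.47, 6.95 and 6.52 in non-SP cells, differing by 0.80 (SE 0.20, limma adjusted p = 0.514). DDIT4, an inhibitor of mTORC1, had 13.21, 13.20 and 13.22 in SP cells and 12.82, 12.71 and 12.99 in non-SP cells, differing by 0.37 (SE 0.12). Neither overlapped between the groups, which held for 2 of the 17 genes, against 11.9% of all genes. SOCS6 and SOCS1, which bind activated receptors or their substrates, differed by 0.38 (SE 0.20) and 0.25 (SE 0.18).

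FOXO factors and their known targets (14 measured) had a median of -0.05, with 6 above 0. FOXO1 had 9.77, 9.99 and 10.06 in SP cells and 9.26, 9.68 and 9.52 in non-SP cells, differing by 0.45 (SE 0.15, limma adjusted p = 0.653). SESN3, a FOXO target that restrains mTORC1, had 4.42, 4.48 and 3.45 in SP cells and 5.31, 4.71 and 5.90 in non-SP cells, differing by -1.19 (SE 0.39, limma adjusted p = 0.619). FOXO6 and FOXO3 differed by 0.36 (SE 0.20) and -0.26 (SE 0.16). FOXO1 and SESN3 were the 2 of 14 genes whose groups did not overlap, against 11.9% of all genes. Genes of mannose 6-phosphate tagging and lysosomal sorting (13 measured) had a median of -0.12, with 3 above 0. GNPTG, GGA2, AP1M1 and GUSB had differences between -0.22 and 0.21. For 3 of the 13 genes the groups did not overlap, all lower in SP, against 7.1% of all genes.

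Several partners of the receptors followed the array sets, and the genes named here were chosen after their values were seen. GRB10, an adaptor that restrains INSR and IGF1R, had 9.27, 9.59 and 9.98 in the arrays above 11 (SP replicates 2 and 3, non-SP replicate 2), against 6.65, 7.39 and 7.83 in those below (SP replicate 1, non-SP replicates 1 and 3). EIF4EBP1, the translation inhibitor that mTORC1 phosphorylates, had 9.82, 9.96 and 9.89 above and 8.43, 8.27 and 8.26 below. TRIB3, which binds AKT, had 9.59, 9.32 and 9.61 above and 7.72, 8.07 and 7.99 below. STC2, an inhibitor of PAPPA, had 10.13, 10.08 and 10.18 above and 8.37, 8.60 and 8.59 below. The last 3 of these are known targets of ATF4, the factor that also induces ASNS. As the sets were read from ASNS and these genes were picked by their values, a part of ATF4 was not tested. SOCS3 and GRB14 ran the other way, with 6.33, 5.62 and 6.46 above and 7.63, 8.47 and 7.34 below for SOCS3. By list, 8 of 17 inhibitors and adaptors (47.1%), 6 of 17 PI3K, AKT and mTOR genes (35.3%) and 5 of 13 lysosomal sorting genes (38.5%) did not overlap between the sets, against 26.9% of all genes. In these lists 12 of 17, 15 of 17 and 12 of 13 genes lay above the median level, where the share of all genes was 39.4%. Of the 8 inhibitors and adaptors, 3 were higher in the arrays above 11 and 5 lower, INPP4B by only 0.001. In the other lists the counts were 2 of 13 further ligands and receptors (15.4%), 1 of 12 cleavage genes (8.33%) and 2 of 14 FOXO genes (14.3%). The 5 genes of the tagging and sorting list were GNPTAB, NAGPA, CTSB, CTSL and CTSZ. All 5 were lower in the arrays above 11, where IGF2R was higher, but the gap was only 0.02 for NAGPA and for CTSL. GGA1, GGA2, GGA3 and AP1M1 of that list overlapped between the sets, as did M6PR.

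**Figure D4:**
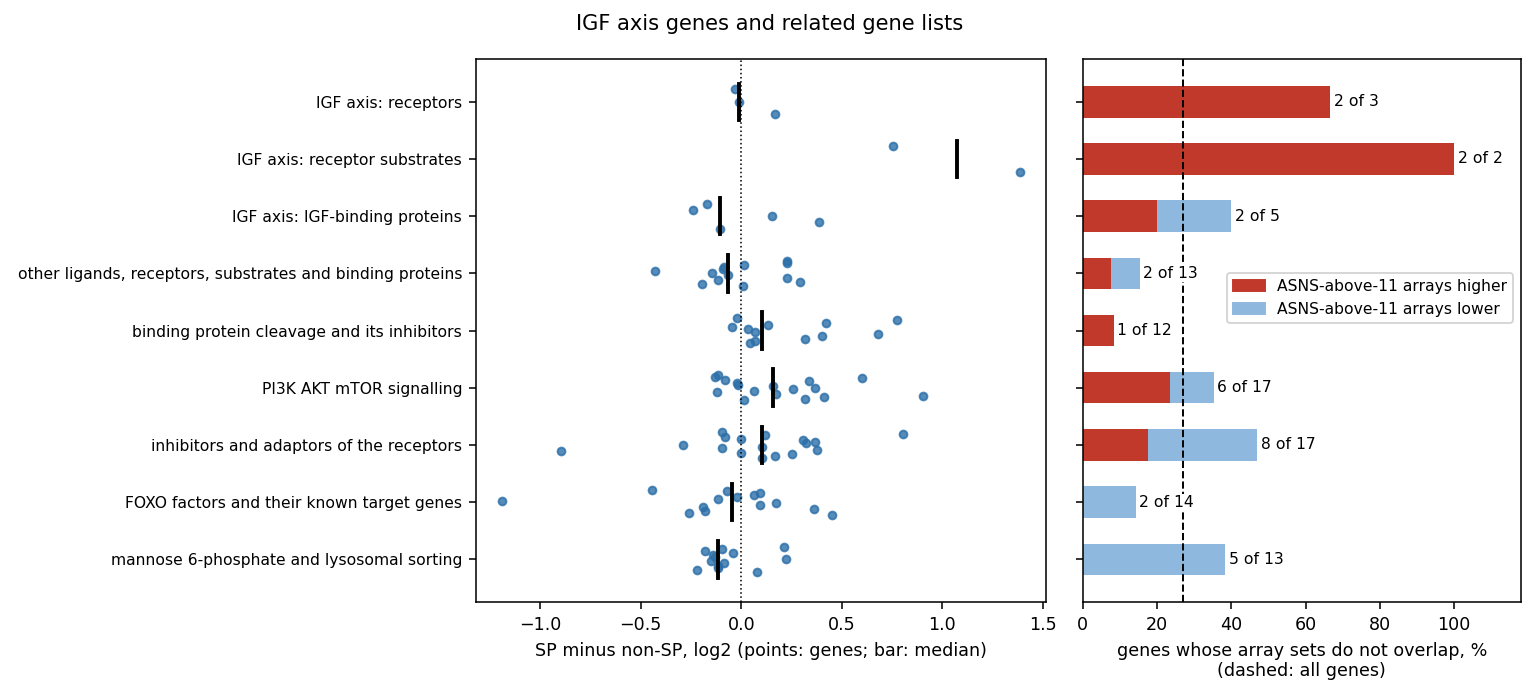
Left, difference between SP and non-SP cells (log2) for each gene of the IGF axis and of 6 related lists, with the median as a bar. Right, percent of genes in each list whose arrays with ASNS above and below 11 do not overlap, with the direction in colour and 26.9%, the share of all genes, as a dashed line; both receptor substrates did not overlap. Among genes above the median level, as most genes of the related lists are, the share was 39.4%.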

How the data were processed

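RNA of 3 SP and 3 non-SP samples was amplified by whole-transcriptome amplification and labelled with biotin, per the labels' protocols. The authors deposited log2 values for each probe set, made with RMA, affy and R 2.8.1 per the submitters' processing notes, with options not given in the sources used here. RMA gives all arrays 1 shared distribution, so a global change in RNA cannot be seen. First quartiles lay between 3.90 and 3.93. Precision is limited by the small number of arrays.

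Of 54675 probe sets, 62 controls were left out; 41091 carried 1 symbol in the platform annotation, 1801 several and 11721 were unnamed. For each gene the probe set with the highest mean was used. limma 3.58.1 in R 4.3.3 (lmFit, eBayes, no block, two-sided) fitted SP minus non-SP over all genes and, for probe sets, over all probe sets, with Benjamini-Hochberg adjustment and 95% intervals. On simulated data with independent errors and the moderated spread of 19775 genes, 60.3% of changes of 1 log2 unit were recovered. That was 202 of 335 over 5 simulations. Changes of 2 and 4 log2 units were put in beside them, which eases the adjusted threshold. Of these larger changes, 309 of 335 and 327 of 330 were recovered. The 45 false calls were counted over the calls of all sizes together. In the real fit 1 gene passed, so the 60.3% may not hold for it. Values used Python 3.11.15, pandas 2.3.3 and matplotlib 3.10.9.

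The members, lists and tests were chosen with earlier results of these data known. Named genes are the 10 members, ASNS, up to 4 genes per list by unadjusted p, and for members with an SD of at least 0.5 the 2 genes most alike by Pearson's r. Cell type markers and the 1 gene past the threshold are named as well. Further list genes named for the array sets fall outside this rule and were chosen after their values were seen. Replicate numbers are shared by the groups, but same-numbered samples did not all deviate together (correlations 0.45, 0.38 and -0.21). Alternatives changed the scaling (cyclic loess, median centring), the probe sets (their mean, or each alone), the prior (robust, with a trend), array weights, a block (replicate number or array set), a minimum level (genes above the median), and left out each sample. The ACTB covariate and the repeats of the array-set count were added after seeing the data.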

Additional observations from a re-analysis of the deposited data

How the results depend on the processing

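With each of the 16 alternatives, 0 of the 10 genes and 0 genes of the 6 lists passed the adjusted threshold in limma, and IRS1, IRS2, IGFBP2, IGFBP3, IGFBP4 and IGFBP5 kept their sign in those run at the gene level. The sign turned for IGF1R with the mean of its probe sets (-0.14), for IGF2R with median centring (0.023) and array weights (0.25), for INSR with median centring (0.000433) and array weights (0.076), and for IGFBP6 with the array set as a block (0.15). With 1 sample left out, IGF2R ranged from -0.24 to 0.31, INSR from -0.12 to 0.11 and IGFBP6 from -0.50 to 0.14. The cause was not tested. Over all genes 1 passed, against 3 with the replicate block, 0 with the mean of probe sets, 0 among genes above the median level, 12 with array weights, 5 with the array set as a block, 3 with the ACTB covariate, and 1 to 2 with 1 sample left out. The replicate block changed no call of a member; non-SP replicate 3 correlated better with SP replicate 1 (0.30) than with its own number (-0.21). The count of members whose SP and non-SP arrays did not overlap was 1, and 0 with the mean of probe sets, 0 of the 4 members above the median level, 0 with median centring, and 1 to 5 with 1 sample left out; with cyclic loess it was 1, IGFBP4 in place of IGFBP5. The count for the array sets was 6, and 2 of 4 above the median level, where fewer genes are tested; it was 5 with the mean of probe sets, cyclic loess or median centring and 6 to 7 with 1 sample left out. Leaving out a sample can only keep or raise both counts, and the share of all genes in those settings was not counted. For dim probe sets such as those of IGF1R, signal over background limits what a difference can show.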
